A study of Mus musculus with 12 samples.

Results

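The messenger RNA of 10 acrosome genes was followed in mouse testis after the level of lncRNA5251, a long non-coding RNA, had been lowered or raised with lentivirus. The genes were Acr, Acrbp, Acrv1, Spaca1, Spaca3, Zpbp, Zpbp2, Spesp1, Dpy19l2 and Gopc. They were matched by gene symbol, from a list chosen with earlier results of these data known. All 10 were found among the 20718 genes of the expression table, and all 10 passed the filter on low counts. RNA was sequenced from 12 testis libraries in 4 groups of 3, from males of the ICR strain (written IRC in the labels). The F0_5251KD group had received virus with 3 short hairpin RNAs against lncRNA5251 in the LV3 backbone, and the F0_3NC group had received the negative control of that backbone. The F0_5251OV group had received virus with lncRNA5251 in the LV5 backbone, and F0_5NC the empty LV5 vector. Per the study's methods, the virus was injected into the testes at 4 weeks of age and the males were raised for 5 weeks, to the age of 9 weeks, mated for 4 days and kept for 4 days more. Every group was therefore injected and carried a lentiviral vector, no uninjected testis was analysed here, and virus was delivered to the whole testis with no cell type named as its target. LncRNA5251 has no entry under that name among the genes of the table, so its level was not analysed here. Whether the 3 libraries of a group stand for 3 males is not stated in the labels, so a p-value covers the variation among libraries only, and part of it may be technical.

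The acrosome is a flattened vesicle that covers the front of the sperm nucleus. It is built in round spermatids from Golgi vesicles that fuse, attach to the nuclear envelope and spread over it, and it is shaped further while the spermatid elongates. It stores the enzymes and binding proteins that sperm release or expose when they meet the egg's zona pellucida. Males that lack a gene needed for this process make round-headed sperm without an acrosome, or sperm with a misshapen one, and are infertile or subfertile. Most acrosome genes are transcribed only in meiotic and postmeiotic germ cells, so that in whole testis their RNA also follows how many spermatids the tissue holds. In such bulk samples fewer cells of a type and less RNA per cell cannot be told apart.

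The members fall into roles. Gopc encodes a Golgi-associated PDZ protein that acts in vesicle transport to the forming acrosome, and unlike the other members it is expressed in many tissues. Dpy19l2 encodes a protein of the inner nuclear membrane that anchors the acrosome to the nucleus. Spaca1 encodes an acrosomal membrane protein that is needed for the acrosome to form. Acrbp encodes the proacrosin binding protein, which holds the precursor of acrosin in the acrosomal matrix, and Acr encodes acrosin itself, a trypsin-like serine protease. Zpbp and Zpbp2 encode related zona pellucida binding proteins of the matrix. Acrv1 encodes the acrosomal vesicle protein SP-10, Spaca3 a lysozyme-like acrosomal protein, and Spesp1 a protein of the equatorial segment, the part of the acrosome that stays on the sperm during fusion with the egg.

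The genes lie on 6 chromosomes of GRCm38, the assembly that the labels call mm10. By GENCODE, Gopc is at chr10:52335850-52382124 (- strand), Dpy19l2 at chr9:24557047-24696293 (- strand) and Spaca1 at chr4:34024874-34050191 (- strand). Acrbp is at chr6:125049689-125063267 (+ strand) and Acr at chr15:89568326-89574585 (+ strand). Zpbp at chr11:11279626-11462408 (- strand), Zpbp2 at chr11:98551097-98558665 (+ strand) and Spaca3 at chr11:80858365-80867814 (+ strand) share chromosome 11, and Acrv1 at chr9:36693220-36698843 (+ strand) and Spesp1 at chr9:62270729-62282208 (- strand) share chromosome 9 with Dpy19l2. The longest coding transcripts have between 2 exons (Spesp1) and 22 exons (Dpy19l2). Exons of 3 members share bases with other annotated genes. For Zpbp, 223 exon bases (5.25%) are shared with Spata48 on the opposite strand, and the library protocol names no strand marking, so reads from these bases cannot be assigned to one of the pair. Acrbp shares 975 exon bases (29.8%) with Gm44597 on the same strand and 90 (2.75%) with 4930557K07Rik on the opposite one, and Gopc shares 87 (0.794%) with Gm26741 on the opposite strand.

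The members differ in base composition. In some libraries Acrbp, Spaca3 and Acr stood on the other side of their means from Gopc, Dpy19l2 and Zpbp. The longest protein-coding transcript holds 55% G and C in Acrbp, 54% in Spaca3 and 53.1% in Acr. It holds 49.5% in Spaca1, 47.1% in Zpbp2, 45.6% in Acrv1, 45.3% in Spesp1, 43.8% in Gopc, 41.7% in Dpy19l2 and 40.3% in Zpbp. The median over the tested genes with a transcript was 50%. To show what these shares look like, a stretch of 120 coding bases within 1 exon is given for the members at the ends of this range, picked in each as the stretch whose GC share is closest to that of its whole transcript. The sequences are from GENCODE transcripts (GRCm38), 5′ to 3′, and capitals mark G and C.
Acrbp exon 5 of 10, chr6:125053575-125053694, + strand: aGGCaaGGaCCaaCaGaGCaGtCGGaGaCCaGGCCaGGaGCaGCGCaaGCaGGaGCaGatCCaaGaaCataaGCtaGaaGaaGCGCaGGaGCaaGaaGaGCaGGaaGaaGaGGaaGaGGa
Spaca3 exon 4 of 6, chr11:80863948-80864067, + strand: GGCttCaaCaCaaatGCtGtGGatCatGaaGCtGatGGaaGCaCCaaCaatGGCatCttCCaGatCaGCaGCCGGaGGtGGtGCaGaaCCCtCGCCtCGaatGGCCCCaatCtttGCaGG
Acr exon 3 of 5, chr15:89569892-89570011, + strand: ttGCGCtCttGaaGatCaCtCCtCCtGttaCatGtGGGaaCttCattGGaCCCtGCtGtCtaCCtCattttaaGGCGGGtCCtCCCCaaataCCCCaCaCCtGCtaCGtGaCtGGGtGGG
Gopc exon 3 of 8, chr10:52354624-52354743, - strand: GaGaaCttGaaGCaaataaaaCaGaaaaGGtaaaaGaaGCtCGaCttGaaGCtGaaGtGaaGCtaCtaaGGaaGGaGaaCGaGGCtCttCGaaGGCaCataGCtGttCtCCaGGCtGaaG
Dpy19l2 exon 19 of 22, chr9:24584484-24584603, - strand: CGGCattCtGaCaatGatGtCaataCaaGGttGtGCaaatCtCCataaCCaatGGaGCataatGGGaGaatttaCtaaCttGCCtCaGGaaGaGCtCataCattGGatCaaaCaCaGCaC
Zpbp exon 4 of 8, chr11:11415210-11415329, - strand: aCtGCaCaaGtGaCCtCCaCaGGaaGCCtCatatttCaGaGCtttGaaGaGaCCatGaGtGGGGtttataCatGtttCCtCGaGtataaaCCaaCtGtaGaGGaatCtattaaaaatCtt
In these stretches 55%, 54.2% and 53.3% of the bases are G or C in Acrbp, Spaca3 and Acr, against 44.2%, 41.7% and 40% in Gopc, Dpy19l2 and Zpbp.

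The promoters of the members were also read, because postmeiotic genes are known to be activated through cAMP response elements (CREs) by the factor CREM. RefSeq promoters (GRCm38.p6, from 250 bases before to 50 bases after the start) matched 9 members, all but Acr. A member counts once, with a match in any of its listed promoters, while the shares of all promoters count each promoter, so the units differ. The full element TGACGTCA, read on both strands, was in 0 of 9, and 1.79% of all 32851 promoters hold it. Its half-site TGACG, which also lies within the full element, was in the promoters of 7 of 9 members on one strand or the other, and 20.8% of all promoters hold it. Acrv1 and Zpbp were the members without it. The TATA motif TATAAA was in 0 of 9 (13.6% of all promoters), TGTGTG in 2 of 9 (21.1%) and GTTGCC in 2 of 9 (12.5%). The 100 bases before the RefSeq start are shown for the 3 members that carry the half-site there, 5′ to 3′ along the gene, with the half-site in capitals.
Spaca1 upstream, chr4:34050066-34050165, - strand: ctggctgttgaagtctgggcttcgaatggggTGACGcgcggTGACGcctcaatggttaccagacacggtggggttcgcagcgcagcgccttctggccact
Spaca3 upstream, chr11:80858263-80858362, + strand: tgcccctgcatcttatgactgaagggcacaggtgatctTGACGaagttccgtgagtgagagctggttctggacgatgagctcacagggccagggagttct
Acrbp upstream, chr6:125049827-125049926, + strand: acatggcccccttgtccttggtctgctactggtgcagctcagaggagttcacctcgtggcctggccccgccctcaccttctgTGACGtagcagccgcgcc
By the GENCODE coordinates above, the Spaca1 and Acrbp genes start further upstream, so their stretches lie inside the gene there. Counted from the RefSeq start, Spaca1 has the half-site at -69 and -59 from the first start listed, Spaca3 at -62 and Acrbp at -18. These are matches of letters only, and binding of a factor was not measured.

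The libraries held between 15431383 and 16355720 estimated counts, and the germ cell lists (spermatogonia, spermatocytes, round and elongated spermatids) and the lists of Sertoli, Leydig, peritubular, endothelial and macrophage markers passed the filter in full. Of the 7 epididymis markers 5 had an entry and 3 passed, and the list differed between groups. Over the 5 with an entry it summed to 4.36 to 10.78 FPKM in F0_3NC, 2.31 to 3.90 in F0_5251KD, 18.68 to 104.4 in F0_5NC and 5.79 to 69.86 in F0_5251OV. Of the 3 that passed, 1 was called lower in F0_3NC than in F0_5NC (adjusted p = 0.0235 by edgeR). Libraries of the same group differed by a chi-square of 3.86 to 21.3 per gene, so no pair was the same library within sampling noise. F0_5NC replicate 1, F0_3NC replicate 2 and F0_5251OV replicate 1 stood apart from the other 9 libraries in the members, as described below, and the medians of each comparison are given with and without them. They were picked out, and the GC correction was added, after seeing the data.

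The level of each gene is given as FPKM, the estimated count divided by transcript length and by the library total, which can be compared between genes. Acrbp was the highest with 339.2 ± 22.9 FPKM (SD, n = 12 libraries), followed by Zpbp2 with 202.0 ± 11.7, Acrv1 with 193.5 ± 12.7 and Spaca1 with 176.8 ± 17.1. Acr (141.8 ± 11.4) and Spaca3 (141.8 ± 10.3) had the same mean. Spesp1 (91.9 ± 4.35), Dpy19l2 (80.6 ± 8.75) and Zpbp (74.8 ± 5.67) followed, and Gopc was the lowest with 10.1 ± 0.93 FPKM.

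**Figure D1:**
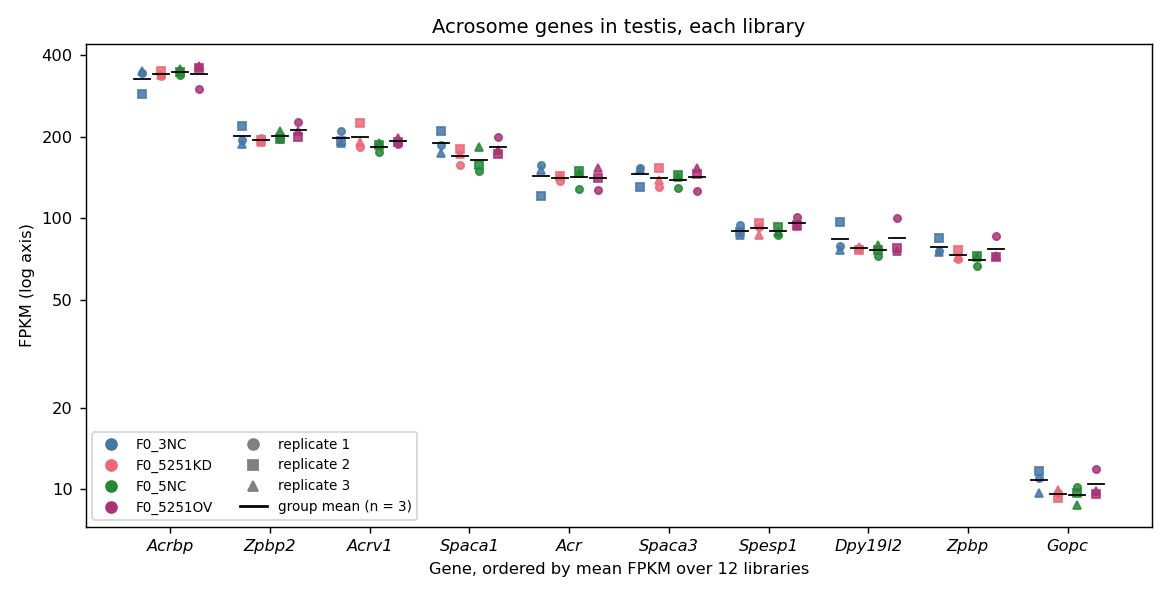
FPKM (log axis) of the 10 acrosome genes in each of the 12 testis libraries, coloured by group, with the replicate as the symbol and the group mean (n = 3) as a bar. Acrbp lies between 287.5 and 365.0 and Gopc between 8.77 and 11.9, and the 4 group means of each gene lie close together.

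The order of the levels was read within each library. Acrbp was above Zpbp2 in 12 of 12 libraries, Spaca1 above Acr in 12, Spaca3 above Spesp1 in 12 and Zpbp above Gopc in 12. The other neighbours were closer. Zpbp2 was above Acrv1 in 8 of 12, Acrv1 above Spaca1 in 10, Acr above Spaca3 in 7, Spesp1 above Dpy19l2 in 11 and Dpy19l2 above Zpbp in 11. The order of Zpbp2 and Acrv1, of Acrv1 and Spaca1, and of Acr and Spaca3 thus changed in 2 or more libraries, and that of the others in at most 1. The ratio of Zpbp to Gopc was between 6.56 and 8.22, and that of Acr to Spaca3 between 0.925 and 1.06.

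The spread of each member over the 12 libraries was small. The highest level was 1.16 times the lowest for Spesp1 and 1.39 times for Spaca1 and for Dpy19l2, which were the narrowest and the widest ranges. The lowest count of any member in any library was 570 (Gopc), where counting error alone is 4.19%, and for the other 9 members counting error at the lowest count was at most 2.72%. The biological coefficient of variation that edgeR fitted lay between 7.16% (Spesp1) and 10.8% (Acr), so for every member the spread between libraries was larger than counting error.

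Knockdown of lncRNA5251 was compared with its control to ask whether acrosome gene RNA moves when this RNA is lowered. No member passed the test between F0_5251KD and F0_3NC. By edgeR's quasi-likelihood test with Benjamini-Hochberg adjustment over 16296 genes, 0 of 10 passed the threshold of 0.05 (0.0245% of all genes passed). An unadjusted p under 0.05 was found in 0 of 10 (4.74% of all genes). Overlap of groups was read in CPM, the count as a share of the library total, not divided by length. In 0 of 10 did the groups not overlap (11.8% of all genes). DESeq2 also called 0 of 10. The log2 fold changes lay between -0.17 (Gopc) and 0.05 (Acrbp), with 3 genes above 0 and 7 below it, and a median of -0.052 beside -0.004 for all genes. The smallest adjusted p among the members was 0.897. The 95% intervals reached from -23.1% to 21.0% in CPM. Without F0_3NC replicate 3 there was 1 member with an unadjusted p under 0.05. The median moved to -0.114 without F0_5251KD replicate 2, to -0.032 without F0_5251KD replicate 1 and to -0.006 after a correction for GC content, with 0.012 for all genes. Without the 3 libraries that stood apart it was -0.044, and 1 member, Acr (-0.14), had an unadjusted p under 0.05 (adjusted p = 0.921 by edgeR). In this comparison the somatic lists had medians above 0, of 0.089 for Sertoli cells (9 of 12 markers above 0), 0.311 for Leydig cells (7 of 9), 0.249 for endothelium (6 of 6), 0.149 for macrophages (7 of 8) and 0.084 for peritubular and smooth muscle cells (6 of 6), with 0 markers called by edgeR. The spermatocyte list had a median of -0.181 (1 of 12 markers above 0) and the round spermatid list 0.001 (5 of 10). The elongated spermatid list had 0.051 (9 of 12) and the spermatogonia list -0.033 (3 of 10), also with 0 markers called. The part of these lists in the member values was not tested.

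Gopc had the smallest unadjusted p of this comparison. Its FPKM was 11.0, 11.7 and 9.67 in F0_3NC replicates 1 to 3, and 9.68, 9.32 and 9.94 in F0_5251KD. The third F0_3NC library lay within the knockdown group, so the groups overlapped, and the log2 fold change was -0.17 ± 0.095 (SE, n = 3 and 3; adjusted p = 0.897 by edgeR). For Spaca1 the FPKM was 186, 209 and 174 in F0_3NC and 158, 181 and 173 in F0_5251KD. The highest knockdown library was above the lowest control library, and the log2 fold change was -0.16 ± 0.10 (adjusted p = 0.897 by edgeR). Acrbp was 343, 288 and 350.2 FPKM in F0_3NC and 335, 350.0 and 339 in F0_5251KD. All knockdown libraries lay within the range of the controls, which was set by the low second library (log2 fold change 0.05 ± 0.10, adjusted p = 0.941 by edgeR).

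Overexpression was compared with the empty vector in the same way. All 10 members had a log2 fold change above 0 between F0_5251OV and F0_5NC (49.5% of all genes had), but none passed the test. By edgeR 0 of 10 passed the threshold (0% of all genes passed), and 0 of 10 had an unadjusted p under 0.05 (8.77% of all genes). DESeq2 called 0 of 10. The values lay between 0.02 (Acrbp) and 0.20 (Spaca1), with a median of 0.131 beside -0.002 for all genes, and the smallest adjusted p was 0.58. The 95% intervals reached from -15.0% to 35.2%. A single control library carried much of this offset. Without F0_5NC replicate 1 the median fell to 0.070 and 7 of 10 were above 0, with Acr (-0.080), Acrbp (-0.037) and Spaca3 (-0.021) below it. At an unadjusted p under 0.05 there were 2 members without F0_5251OV replicate 2 and 1 without either F0_5NC replicate 2 or F0_5NC replicate 3. The median was 0.053 after the GC correction, with -0.042 for all genes, and 0.058 without the 3 libraries that stood apart. The somatic lists were on the other side of 0 in this comparison, with medians of -0.262 for Sertoli cells (0 of 12 markers above 0), -0.218 for Leydig cells (0 of 9), -0.180 for endothelium (0 of 6), -0.383 for macrophages (1 of 8) and -0.420 for peritubular and smooth muscle cells (1 of 6). Among the germ cell lists, round spermatids had a median of 0.123 (8 of 10 above 0) and spermatocytes 0.114 (10 of 12). The elongated spermatid list had 0.043 (9 of 12) and the spermatogonia list -0.075 (4 of 10). By edgeR 0 markers of these somatic and germ cell lists passed the threshold, and their part in the member values was not tested. The median of the peritubular list was low in each F0_5251OV library (-0.28, -0.31 and -0.25 relative to the mean of the 12 libraries). Its summed level overlapped that of the controls, with 242.0 to 266.8 FPKM in F0_5251OV and 226.9 to 262.5 in F0_5NC.

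Spesp1 was the member whose groups did not overlap in CPM here, 1 of 10 beside 13.9% of all genes. Its FPKM was 86.6, 92.5 and 89.3 in F0_5NC and 100.9, 94.2 and 93.8 in F0_5251OV. Every overexpression library was above every control library, the closest pair being 93.8 and 92.5, and the log2 fold change was 0.15 ± 0.075 (adjusted p = 0.58 by edgeR). Dpy19l2 was 72.4, 76.6 and 79.5 FPKM in F0_5NC and 100.5, 78.0 and 75.7 in F0_5251OV. The first overexpression library was far above the other 5, which overlapped, and the log2 fold change of 0.20 ± 0.11 (adjusted p = 0.604 by edgeR) turned to -0.008 without the 3 libraries that stood apart. Acr was 127.8, 149.9 and 147 FPKM in F0_5NC and 127.7, 141 and 154 in F0_5251OV. Each group had 1 low library, its first, and the groups overlapped (log2 fold change 0.03 ± 0.12, adjusted p = 0.959 by edgeR).

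**Figure D2:**
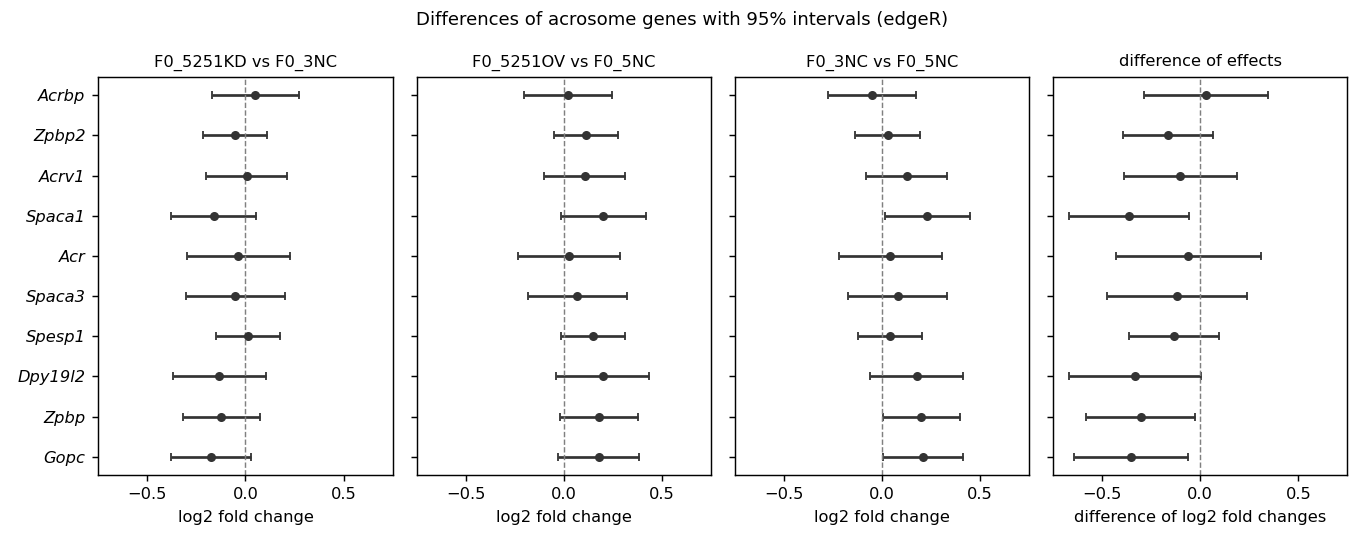
Log2 fold changes of the 10 acrosome genes with 95% intervals (edgeR, 3 libraries per group), 1 panel per comparison, and in the last panel the difference between the knockdown and the overexpression effect. All points lie between -0.36 and 0.23, and in the first 2 panels every interval crosses 0.

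The control groups differ in the vector backbone. The study's methods also list a negative control sequence beside the hairpins, while F0_5NC is the empty LV5 vector. Neither control carries the treatment, so their difference shows how far the members move without it. Between F0_3NC and F0_5NC 9 of 10 members had a log2 fold change above 0, between -0.05 (Acrbp) and 0.23 (Spaca1), with a median of 0.103 beside 0 for all genes. By edgeR 0 of 10 passed the threshold (0.331% of all genes passed), and 3 of 10 had an unadjusted p under 0.05 (11.9% of all genes). DESeq2 called 0 of 10, with 2 at an unadjusted p under 0.05. The smallest adjusted p was 0.404. Without F0_5NC replicate 1 the median was 0.020, 5 of 10 were above 0 and 0 of 10 had an unadjusted p under 0.05. The median was 0.068 without F0_3NC replicate 1, with 1 member at an unadjusted p under 0.05, and 0.155 without F0_3NC replicate 2, with 0. Under the GC correction it was 0.021, with -0.032 for all genes, and without the 3 libraries that stood apart it was 0.060, with 6 of 10 above 0. The Sertoli list had a median of -0.256 here (0 of 12 above 0), the endothelial list -0.138 (0 of 6), the macrophage list -0.285 (2 of 8), the Leydig list -0.157 (3 of 9) and the peritubular list -0.098 (3 of 6), again with 0 markers called and their part not tested. Among the germ cell lists, spermatocytes had a median of 0.193 (11 of 12 above 0) and round spermatids 0.145 (8 of 10). The elongated spermatid list had -0.052 (3 of 12) and the spermatogonia list -0.093 (4 of 10), with 0 markers called and their part not tested. This comparison shares the F0_3NC libraries with the knockdown comparison and the F0_5NC libraries with the overexpression comparison.

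The 3 members with an unadjusted p under 0.05 were Spaca1, Gopc and Zpbp. Spaca1 was 150.0, 158 and 183 FPKM in F0_5NC beside the 186, 209 and 174 given above for F0_3NC. Its groups overlapped through the third library of each, and the log2 fold change was 0.23 ± 0.10 (adjusted p = 0.404 by edgeR). Gopc was 10.2, 9.72 and 8.77 FPKM in F0_5NC, so the lowest F0_3NC library fell below 2 of the F0_5NC libraries, and the log2 fold change was 0.21 ± 0.095 (adjusted p = 0.41 by edgeR). Zpbp was 75.7, 84.9 and 75.1 FPKM in F0_3NC and 66.7, 72.6 and 72.0 in F0_5NC. By CPM it was the 1 member of 10 whose groups did not overlap, beside 17% of all genes. Its log2 fold change was 0.20 ± 0.091 (adjusted p = 0.413 by edgeR). By FPKM Acrv1 did not overlap either, at 190.1 or more in F0_3NC and 189.7 or less in F0_5NC. In the treated groups Zpbp was 70.9, 76.6 and 71.8 FPKM in F0_5251KD and 86.2, 71.8 and 72.8 in F0_5251OV. Each treated group overlapped both controls.

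The effect of knockdown was then set against that of overexpression in 1 interaction contrast, (F0_5251KD minus F0_3NC) minus (F0_5251OV minus F0_5NC). Of the members 9 of 10 were below 0, between -0.36 (Spaca1) and 0.03 (Acrbp), with a median of -0.150 beside 0.003 for all genes. By edgeR 0 of 10 passed the threshold (0% of all genes), and 3 of 10 had an unadjusted p under 0.05 (11.3% of all genes). These were Gopc (-0.35 ± 0.13), Spaca1 (-0.36 ± 0.14) and Zpbp (-0.30 ± 0.13), with adjusted p of 0.42, 0.42 and 0.424 by edgeR. DESeq2 called 0 of 10, also with 3 at an unadjusted p under 0.05. Without F0_5NC replicate 1 the median was -0.079 and 1 member had an unadjusted p under 0.05. That number was 0 without F0_5251OV replicate 1, 1 without F0_5251KD replicate 1, 2 without F0_3NC replicate 2, and 4 without any one of F0_3NC replicate 1, F0_3NC replicate 3, F0_5251OV replicate 2 or F0_5251OV replicate 3. After the GC correction the median was -0.057, with 0.053 for all genes, and 1 member had an unadjusted p under 0.05. Without the 3 libraries that stood apart the median was -0.084, with 10 of 10 below 0 and 0 at an unadjusted p under 0.05.

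F0_5NC replicate 1 was low in all 10 members. Relative to each gene's mean over the 12 libraries, on the log2 CPM scale, the members were between -0.33 (Spaca1) and -0.09 (Gopc) there, with a median of -0.23. It held the lowest CPM of all 12 libraries for 8 of 10 members, and the lowest FPKM for 5 of 10. FPKM has no TMM scaling, and this library had the highest TMM factor, 1.078. Lists of later germ cells were low there too. The medians were -0.22 for 10 round spermatid markers, -0.24 for 12 elongated spermatid markers and -0.13 for 12 spermatocyte markers.

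In the same library most of the somatic lists were high. The median was 0.50 for Sertoli cell markers with 12 of 12 above their mean, 0.50 for macrophage markers with 8 of 8, 0.31 for Leydig cell markers with 8 of 9, and 0.24 for endothelial markers with 5 of 6. For peritubular and smooth muscle markers it was 0.13 with 3 of 6 above their mean, and the summed level of that list, 226.9 FPKM, was the lowest of the 12 libraries. The summed level of the Sertoli list was 941 FPKM there, while F0_3NC libraries had 469.5 to 606.2, F0_5251KD 557.2 to 626.7 and F0_5251OV 480.0 to 569.7, and that of the Leydig list was 4528 FPKM beside 1785 to 3914 in the treated and F0_3NC groups. The part of this cell composition in the member differences was not tested. F0_5251KD replicate 1 was also below the mean in all 10 members, by less (-0.19 to -0.02, median -0.08), and its Leydig list was at 0.56 while its Sertoli list was at 0.03.

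**Figure D3:**
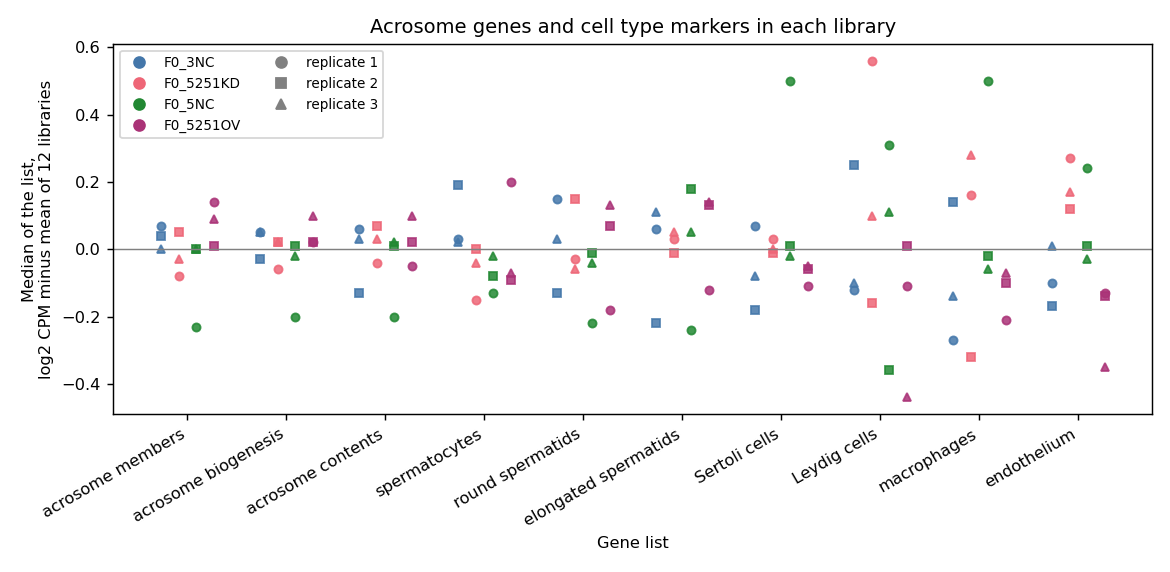
Median of each gene list in each library, as log2 CPM minus the mean of the 12 libraries, coloured by group with the replicate as the symbol. F0_5NC replicate 1 (green circle) lies at -0.23 for the 10 acrosome genes and at 0.50 for Sertoli cell and for macrophage markers.

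F0_3NC replicate 2 and F0_5251OV replicate 1 showed another pattern, in which the members split. In F0_3NC replicate 2 Acrbp (-0.25), Acr (-0.24) and Spaca3 (-0.15) were below their means while Dpy19l2 (0.26), Spaca1 (0.22), Gopc (0.20), Zpbp (0.19) and Zpbp2 (0.11) were above. Spesp1 (-0.05) and Acrv1 (-0.03) were slightly below. In F0_5251OV replicate 1 Spaca3 (-0.19), Acrbp (-0.18), Acr (-0.16) and Acrv1 (-0.05) were below, and Dpy19l2 (0.32), Gopc (0.23), Zpbp (0.22), Spaca1 (0.16), Zpbp2 (0.15) and Spesp1 (0.13) were above. From the lowest to the highest member the range was 0.51 on the log2 scale in both, and 0.09 to 0.33 in the other 10 libraries. The spermatocyte list had medians of 0.19 in F0_3NC replicate 2 and 0.20 in F0_5251OV replicate 1. In the same order, the medians were -0.13 and -0.18 for round spermatids, -0.22 and -0.12 for elongated spermatids, and -0.21 and 0.02 for spermatogonia. The part of these lists in the split was not tested. F0_3NC replicate 2 is a control of one backbone and F0_5251OV replicate 1 a treated library of the other, and the cause of the split was not tested.

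**Figure D4:**
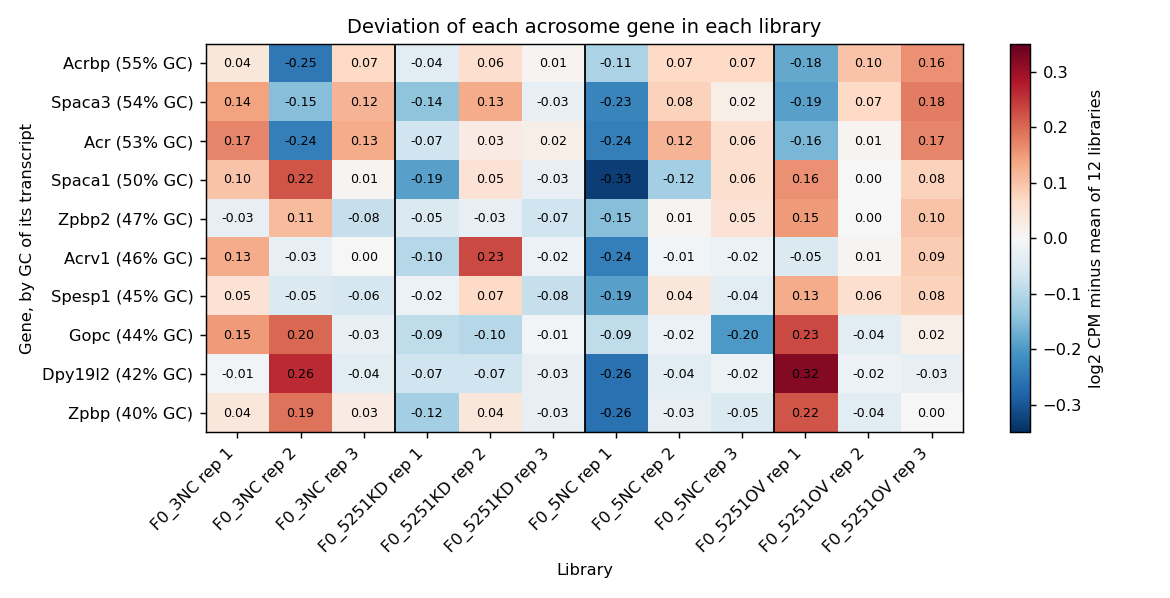
Log2 CPM of each acrosome gene minus its mean over the 12 libraries, with genes ordered from the highest to the lowest GC content of the transcript and libraries ordered by group. F0_5NC replicate 1 is blue throughout (-0.33 to -0.09), and F0_3NC replicate 2 and F0_5251OV replicate 1 are blue at the top and red at the bottom, with Acrv1 and, in the first of them, Spesp1 slightly below 0 in between.

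The 3 members with GC-rich transcripts shown above were the lowest in these 2 libraries, and the 3 with AT-rich ones were among those above their means. Acrv1, at 45.6% GC, was below its mean in both, and Spesp1, at 45.3%, in F0_3NC replicate 2. Other genes of the testis moved in the same way. Over 5650 genes with a mean log2 CPM above 5, the deviation in a library changed by -0.335 per 10 percentage points of GC in F0_3NC replicate 2 and by -0.257 in F0_5251OV replicate 1, while the other 10 libraries had slopes of 0.007 to 0.109. In F0_3NC replicate 2 the median of 1208 genes with 40 to 45% GC was 0.215 and that of 1106 genes with 55% or more was -0.301. Dpy19l2 and Acrbp, at 0.26 and -0.25, lay near these values. Spaca1 was further from them, at 0.22 where 1599 genes with 45 to 50% GC had a median of 0.078. After the loess correction on GC the range of the members fell from 0.51 to 0.41 in F0_3NC replicate 2 and from 0.51 to 0.31 in F0_5251OV replicate 1, while the median of F0_5NC replicate 1 went from -0.23 to -0.11 with 9 of 10 members below their means. The range of 0.41 was still the widest of all libraries. The longest coding transcripts of Acrbp, Spaca3 and Acr have 1883, 947 and 1504 bases. Those of Gopc, Dpy19l2 and Zpbp are longer, with 4317, 3442 and 4248 bases. GC content and length thus differ together in these members, and the part of length in the split was not tested.

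**Figure D5:**
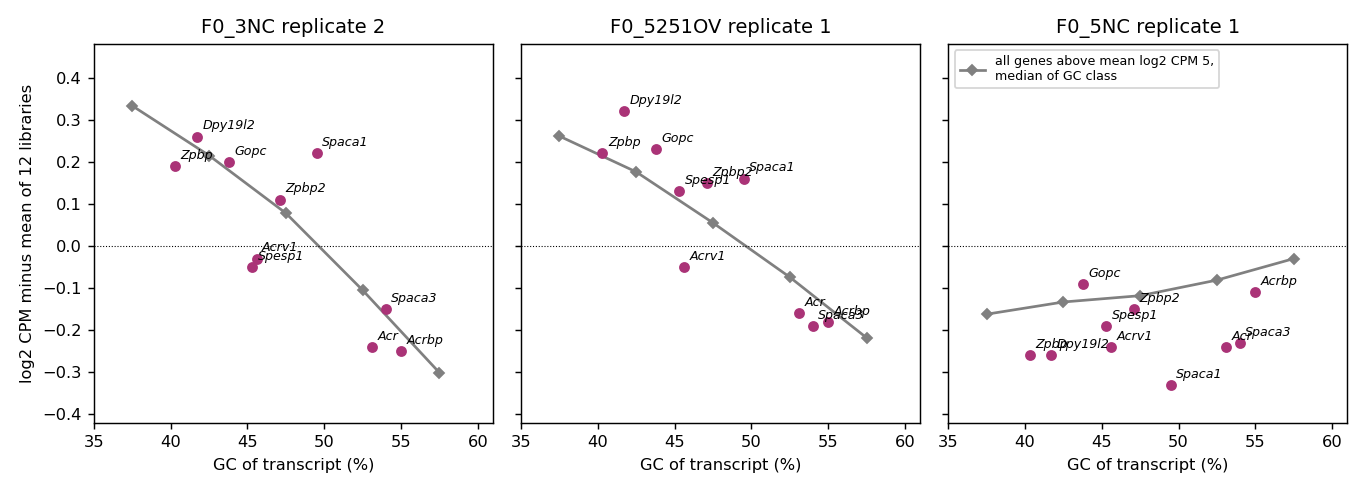
Log2 CPM of each acrosome gene minus its mean over the 12 libraries against the GC content of its longest coding transcript, in the 3 libraries that stood apart, with grey diamonds for the median of all genes above a mean log2 CPM of 5 in classes of GC content. The medians of other genes fall with GC, and most members lie near them, in F0_3NC replicate 2 and F0_5251OV replicate 1, and in F0_5NC replicate 1 all members are below 0.

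Ratios between members showed the same libraries. The FPKM of Acrbp was 2.95 times that of Dpy19l2 in F0_3NC replicate 2 and 3.00 times in F0_5251OV replicate 1, and 4.30 to 4.82 times in the other 10 libraries. The other ratios computed varied less. Acr was 0.379 to 0.459 times Acrbp, the protein that binds its precursor, with the lowest value in F0_5NC replicate 1. Zpbp2 was 2.5 to 2.94 times Zpbp.

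The 5 other genes whose log2 CPM over the 12 libraries was most like the mean of the members were Txndc8 (Pearson r = 0.985, Spearman rho = 0.923), Zdhhc5 (0.964 and 0.846), Ppil6 (0.962 and 0.951), Spata48 (0.959 and 0.846) and Pdha2 (0.959 and 0.958), of 16286 genes compared. These are the highest of many values over 12 libraries that share their depth, cell composition and base composition, so they are given without a test. Spata48 is the gene that shares exon bases with Zpbp.

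Other acrosome genes were read from a pair of lists. The list for acrosome biogenesis held 35 genes, all tested, and that for acrosome contents 29 genes, of which 27 were tested. By edgeR 0 of 35 and 0 of 27 passed the threshold in each of the 4 comparisons. At an unadjusted p under 0.05 there were 1 and 2 genes in F0_5251KD vs F0_3NC, 4 and 1 in F0_5251OV vs F0_5NC, 9 and 6 in F0_3NC vs F0_5NC, and 9 and 6 in the difference of effects, where 4.74%, 8.77%, 11.9% and 11.3% of all genes had such a p. The biogenesis list had medians of -0.037, 0.098, 0.082 and -0.118 in these comparisons, with 33 of 35 genes above 0 in F0_5251OV vs F0_5NC beside 49.5% of all genes, and the contents list had -0.018, 0.046, 0.019 and -0.036. Without the 3 libraries that stood apart the medians were -0.033, 0.053, 0.054 and -0.088 for biogenesis and -0.029, 0.022, 0.006 and -0.040 for contents, again with 0 genes called. Of the biogenesis genes 27 of 35 were then above 0 in F0_5251OV vs F0_5NC and 3 of 35 in F0_5251KD vs F0_3NC.

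Among the biogenesis genes, Pick1, which encodes a partner of Gopc in vesicle transport, had log2 fold changes of 0.10 ± 0.13 for knockdown and 0.02 ± 0.13 for overexpression. Vps54, a subunit of a Golgi tethering complex, had -0.29 ± 0.13 and 0.12 ± 0.13, and its knockdown value had an adjusted p of 0.897 by edgeR. The values were -0.06 ± 0.071 and 0.10 ± 0.071 for Agfg1, which acts in the fusion of proacrosomal vesicles, and -0.02 ± 0.066 and 0.08 ± 0.066 for Spata16, a Golgi protein of spermatids. Csnk2a2, a catalytic subunit of casein kinase 2, had -0.04 ± 0.077 and 0.03 ± 0.077. Spink2, an inhibitor of acrosomal proteases, was the most abundant of those named here at 545 FPKM and had 0.01 ± 0.078 and 0.10 ± 0.078. Actl7a, an actin-related protein of the acroplaxome, had 0.02 ± 0.12 and 0.10 ± 0.12. In none of these genes was either value past the threshold.

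Among the contents, Eqtn, an acrosomal membrane protein, had -0.11 ± 0.10 for knockdown and 0.21 ± 0.10 for overexpression, and Spam1, a sperm surface hyaluronidase, had -0.20 ± 0.14 and 0.15 ± 0.14. Prss21, a membrane-anchored serine protease, had 0.07 ± 0.12 and 0.01 ± 0.12, Dkkl1, an acrosomal glycoprotein, 0.12 ± 0.13 and -0.01 ± 0.13, and Lyzl4, a lysozyme-like protein, 0.04 ± 0.10 and 0.11 ± 0.10. None of these values passed the threshold. Syt6, a synaptotagmin, did not pass the filter on low counts. A split along base composition was seen in these genes too. In F0_3NC replicate 2 Spam1 (39.3% GC) was at 0.41, Vps54 (40.2%) at 0.32 and Eqtn (39.8%) at 0.20, while Dkkl1 (56.1%) was at -0.40, Pick1 (56.8%) at -0.35 and Prss21 (54.9%) at -0.27.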

How the data were processed

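Testis mRNA was enriched by the authors with oligo(dT), sequenced on a HiSeq 2500 and aligned with SOAPaligner 2.20 (mm10 per the labels), with no strand step named. The authors deposited 1 table, in which each gene has, per library, an estimated count and a level in FPKM. The methods name RPKM, while the deposited FPKM values behave as counts over effective transcript length and total. For the counting tool, no name is given in the sources used here. About 12% of count values had decimals (tolerance 1e-06), and all were rounded. Another 18 columns of per-sample values and 14 columns of averages matched no sample and were not used.

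Tests used edgeR 4.0.16 under R 4.3.3 (TMM, filterByExpr, two-sided quasi-likelihood F test, 1 fit of 12 libraries in 4 groups, 8 residual degrees of freedom), with Benjamini-Hochberg adjustment over all 16296 genes and a threshold of 0.05. Centred values are log2 CPM (prior count 0.5) minus the gene's mean. Intervals are 95%. GC content was taken from the longest protein-coding GENCODE M21 transcript (96.3% of tested genes), and the correction fitted a loess curve (span 0.3) per library. Totals of 15431383 to 16355720 make counting error of the members small beside the spread between libraries.

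Results were recomputed with upper-quartile scaling, with DESeq2 1.42.0, with no filter, with limma 3.58.1 on log2(FPKM + 1), only the groups compared, the replicate number as a block, each library left out, CPM in place of FPKM, and the random sampling model that the study's methods name (DEGseq), written out for counts summed per group (adjusted p of 0.001, log2 ratio of 1). The GC correction and leaving out 3 libraries together were added after seeing the data. The members and lists were chosen with earlier results of these data known. The genes named are all members, 13 genes fixed by name from the 2 acrosome lists, any gene of these lists past the threshold, and the 5 genes most like the members.

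The fit was also run on counts simulated from its own estimates for these libraries, with known changes added. Of 100 genes changed 2-fold, 67 were recovered for F0_5251KD vs F0_3NC, 67 for F0_5251OV vs F0_5NC and 72 for F0_3NC vs F0_5NC. Of 100 changed 4-fold, 93, 93 and 92 were recovered, with 7, 5 and 8 false calls. Changes smaller than 2-fold were not simulated.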

Additional observations from a re-analysis of the deposited data

How the results depend on the processing

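No acrosome member passed the threshold under any alternative run (DESeq2, upper-quartile scaling, no filter, limma on FPKM, only the groups compared, the replicate block, each library left out, the random sampling model on summed counts, the GC correction, and F0_3NC replicate 2, F0_5251OV replicate 1 and F0_5NC replicate 1 left out together). The sampling model also asks for a log2 ratio of 1, and by edgeR the members lay between -0.17 and 0.23 in the comparisons it covers. Its fold cut-off alone thus left no member that could pass, and its result adds nothing here. For the difference of effects, which needs all 4 groups, neither the fit of only the groups compared nor the sampling model gives a value. The medians kept their sign under all that gave one (the sampling model gives none). The smallest adjusted p of a member was 0.684 for knockdown, 0.389 for overexpression, 0.315 between the controls and 0.329 for the difference. With CPM in place of FPKM F0_5NC replicate 1 was the lowest library for 8 members in place of 5. Same-numbered libraries of compared groups had correlated deviations of -0.19 to 0.09, so the numbers do not pair the libraries. With the replicate block 0 members were called, and Acrv1 for knockdown went to -0.001. Single values near 0 changed sign, none past the threshold, and the cause was not tested. With limma on log2(FPKM + 1) Acr (-0.009) and Acrbp (-0.026) turned for overexpression and Zpbp2 (-0.001) between the controls. With the GC correction these were Acrbp (-0.005), Zpbp (0.012) and Zpbp2 (0.008) for knockdown, Acrbp (0.001), Zpbp2 (-0.056) and Spesp1 (-0.067) between the controls, and Acrbp (-0.038), Acrv1 (0.058) and Spesp1 (0.035) in the difference. Without the 3 libraries these were Acrbp (-0.031), Acrv1 (-0.014) and Zpbp2 (0.015) for knockdown, Acr (-0.002) and Dpy19l2 (-0.008) for overexpression, Zpbp2 (-0.090), Spesp1 (-0.008) and Dpy19l2 (-0.008) between the controls, and Acrbp (-0.088) in the difference. Leaving out 1 library at a time, values that changed sign ranged for knockdown from -0.153 to 0.036 (Acr), -0.043 to 0.110 (Acrbp), -0.099 to 0.072 (Acrv1), -0.091 to 0.004 (Zpbp2), -0.029 to 0.047 (Spesp1) and -0.138 to 0.007 (Spaca3). They ranged for overexpression from -0.080 to 0.107 (Acr), -0.046 to 0.120 (Acrbp) and -0.021 to 0.167 (Spaca3). Between the controls they ranged from -0.065 to 0.164 (Acr), -0.115 to 0.044 (Acrbp), -0.032 to 0.075 (Zpbp2), -0.011 to 0.170 (Spaca3) and -0.024 to 0.096 (Spesp1), and in the difference from -0.186 to 0.054 (Acr) and -0.072 to 0.098 (Acrbp). With 3 libraries per group the median standard error of a member was 0.0977 (log2) for knockdown, beside 0.145 over all genes, which limits the differences that could be seen.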
